A study of Homo sapiens with 2 samples.

Results

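The miR-221/miR-222 cluster of basal breast cancer was read as the 4 mature miRNAs of its 2 precursors, hsa-miR-221-3p, hsa-miR-221-5p, hsa-miR-222-3p and hsa-miR-222-5p. They were taken by name, as 4 of the 2588 mature miRNA names counted in each library. The rule uses no measured value, but the cluster was picked with earlier results of these data known. The 2 libraries held the small RNA of MS2 pulldowns in MDA231, a human breast cancer line (MDA-MB-231) that is basal-like, mesenchymal in type and invasive. The UCA1-MS2 library came from MDA231-UCA1-MS2 cells, which carried by lentivirus the long non-coding RNA UCA1 fused to 6 MS2 hairpins, and the control library came from MDA231-Con cells. UCA1, an oncogenic long non-coding RNA, is studied as a possible sponge of miRNAs. Lysates were passed over MBP-MCP, the MS2 coat protein fused to maltose-binding protein, on amylose resin, and maltose released what had bound. The study's methods describe this for UCA1-MS2 lysates and do not set out the handling of the control lysate separately. A column heading of the study calls the control MS2, but the text and labels used here do not describe what the control cells carried, and the control sample's title differs in form from that of the UCA1-MS2 sample. There was 1 library per condition, so no difference could be set against a spread between replicates, and the error given with each value covers the counting of reads only. No total small RNA of the same cells was analysed here, so all levels are levels in a pulldown and not in a cell.

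A miRNA is cut from a hairpin precursor whose arms each give a mature strand, the 5p and the 3p. Usually a single strand is kept by Argonaute and guides it to messages through the seed, bases 2 to 8 of the miRNA, while the passenger strand is lost. miR-221 and miR-222 are transcribed together, and their 3p strands are known for holding down the cell cycle inhibitor CDKN1B (p27), the receptor KIT and, in breast cancer, the oestrogen receptor ESR1. Both are known to be high in basal-like and low in luminal breast cancer lines.

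The mature sequences are shown because the paralogs share a seed and differ after it. They were taken from the RefSeq annotation of GRCh38.p14, 5′ to 3′, with the seed in capitals, and 3 of the 4 members had an entry. hsa-miR-221-5p is named only.
hsa-miR-221-3p: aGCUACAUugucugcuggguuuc
hsa-miR-222-3p: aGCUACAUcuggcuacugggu
hsa-miR-222-5p: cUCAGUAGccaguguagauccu
The 3p strands of miR-221 and miR-222 had the same first 8 bases and differed at 10 of the 21 positions that both have. Of the 2370 mature human miRNAs of the RefSeq table, no other had their seed, and no other had the seed of hsa-miR-222-5p. A read that covers the whole 3p strand can therefore be told apart between the paralogs, while one cut short after the seed cannot.

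Both hairpins, 110 bases each, lie on the minus strand of the X chromosome, 748 bases apart. They are shown with the mature strands of the RefSeq table in capitals.
MIR221, chrX:45746157-45746266: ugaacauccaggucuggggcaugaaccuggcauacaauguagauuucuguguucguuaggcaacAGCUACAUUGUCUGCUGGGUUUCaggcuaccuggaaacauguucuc
MIR222, chrX:45747015-45747124: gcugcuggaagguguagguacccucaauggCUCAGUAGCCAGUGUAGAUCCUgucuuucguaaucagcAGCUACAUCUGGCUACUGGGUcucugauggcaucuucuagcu
In GENCODE release 29 on GRCh38, both lie within MIR222HG, a long intergenic non-coding RNA of the same strand. They fall in the intron of its transcript MIR222HG-201, with MIR221 56 bases and MIR222 914 bases from the nearest exon, and outside its transcript MIR222HG-202.

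The UCA1-MS2 library held 20037 miRNA counts over 102 listed miRNAs and the control library 72579 over 139. The deposited RPM values give each count relative to a total that, worked back from counts and RPM, was 12405522 in the UCA1-MS2 library and 12912336 in the control library. Which reads that total holds is not stated, so an RPM fold is relative to an undefined total. The miRNA counts were 0.162% and 0.562% of it. Every fold between the libraries depended on which total it was set against, and the change from miRNA totals to RPM totals lowered the log2 ratio by a median of 1.78. Both are given, and ratios within a library, which need no total, carry the comparison of the paralogs and arms. The lowest listed count was 10, so that a listed 0 stands for up to 9 counts, or up to 0.0449% of the miRNA counts (0.725 RPM) in the UCA1-MS2 library and 0.0124% (0.697 RPM) in the control library.

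hsa-miR-221-3p, a 3p strand and the guide strand of miR-221, was counted 443 times in the UCA1-MS2 library and 384 times in the control library. These counts were 2.21% (95% Wilson interval 2.02 to 2.42) and 0.529% (0.479 to 0.585) of the miRNA counts. In deposited RPM the values were 35.7 and 29.7. Its counts were higher in the UCA1-MS2 library although that library held fewer miRNA counts in all. hsa-miR-222-3p, the guide strand of miR-222, was counted 102 and 679 times in the same order. Its share was 0.509% (0.420 to 0.618) against 0.936% (0.868 to 1.01), and its RPM was 8.22 against 52.6. The 3p paralogs thus stood in opposite order in the libraries, with miR-221-3p ahead of miR-222-3p in the UCA1-MS2 pulldown and behind it in the control pulldown.

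The 5p strands, the usual passengers, were low in both libraries. hsa-miR-221-5p had 10 counts in the UCA1-MS2 library, the lowest count listed at all, and 63 in the control library. That was 0.0499% (0.0271 to 0.0919) and 0.0868% (0.0679 to 0.111) of the miRNA counts, or 0.806 and 4.88 RPM. hsa-miR-222-5p was listed at 0 in the UCA1-MS2 library and had 16 counts in the control library, 0.0220% (0.0136 to 0.0358) of the miRNA counts or 1.24 RPM. At an equal share of the miRNA counts, only 4.42 counts of hsa-miR-222-5p were due in the UCA1-MS2 library, which is under the lowest listed count. Its 0 therefore gave no direction on that scale.

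**Figure D1:**
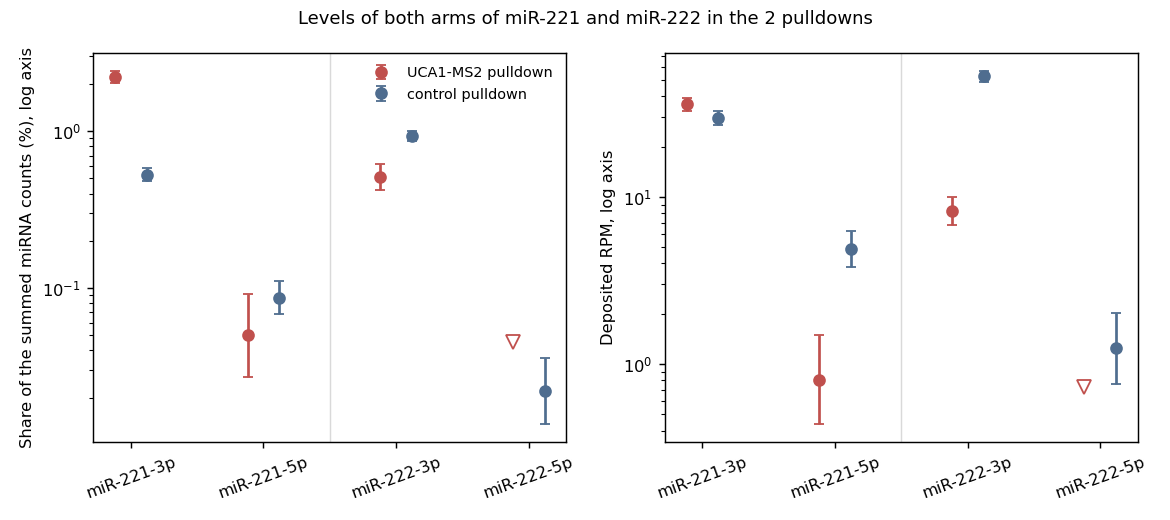
Share of the summed miRNA counts in percent (left) and deposited RPM (right), both on log axes, of each member in the UCA1-MS2 pulldown (red) and the control pulldown (blue), 1 library each. Bars are 95% Wilson intervals of the counts and the open triangle is the limit of 9 counts for a listed 0. hsa-miR-221-3p was the only member with a higher point in the UCA1-MS2 pulldown on both scales, and hsa-miR-222-3p lay lower there on both.

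Against the miRNA totals, the share of hsa-miR-221-3p was 4.18-fold higher in the UCA1-MS2 library (95% exact conditional interval 3.64 to 4.80), a log2 ratio of 2.06. Of the 90 miRNAs listed in both libraries, 33.3% were at least 2-fold higher by this measure, and hsa-miR-221-3p was the only one of 3 members listed in both to be so. In two-sided Fisher's exact tests on the reads, which compare these libraries and not the conditions, its Benjamini-Hochberg adjusted p was 5.2e-89 over 151 miRNAs. edgeR's exact test gave an adjusted p of 2.15e-05 with an assumed coefficient of variation of 0.2 between pulldowns and 0.0606 with 0.4. Against the RPM totals, hsa-miR-221-3p was 1.20-fold higher (1.05 to 1.38), a log2 ratio of 0.26 with an adjusted Fisher p of 0.0109. Here 6.67% of the 90 miRNAs were at least 2-fold higher, and none of the 3 members was among them. So the point estimate was above equality on both scales, while the size of the difference was not the same. The RPM difference was set against counting error only, since edgeR's exact test with an assumed variation was run on the miRNA totals alone. Its direction is therefore not established beyond the reads of these libraries.

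hsa-miR-222-3p went the other way. Against the miRNA totals it was 1.84-fold lower in the UCA1-MS2 library (1.49 to 2.29), a log2 ratio of -0.88 with an adjusted Fisher p of 3.3e-09, which did not reach 2-fold. With an assumed coefficient of variation of 0.4, its adjusted p by edgeR's exact test was 0.418, and with 0.2 it was 0.0748. At least 2-fold lower were 20% of the 90 miRNAs and none of the 3 members. Against the RPM totals it was 6.40-fold lower (5.19 to 7.96), with an adjusted Fisher p of 1.3e-99. On that scale 63.3% of the 90 miRNAs were at least 2-fold lower, among them 2 of the 3 members, hsa-miR-222-3p and hsa-miR-221-5p.

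hsa-miR-221-5p had a share 1.74-fold lower in the UCA1-MS2 library, with an interval from 0.886 to 3.80-fold lower that holds equality, and an adjusted Fisher p of 0.143. By RPM it was 6.05-fold lower (3.08 to 13.2), with an adjusted Fisher p of 8.6e-10. hsa-miR-222-5p, with 9 counts taken for its 0, was 1.71-fold lower by RPM, with an adjusted Fisher p of 0.299, and 2.04-fold higher against the miRNA totals, with an adjusted Fisher p of 0.138. Its adjusted Fisher p of 0.0423 against the miRNA totals rests on reading the listed 0 as no reads.

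The 4 members together had 555 counts in the UCA1-MS2 library and 1142 in the control library. As a share of the miRNA counts the cluster was 1.76-fold higher in the UCA1-MS2 library (1.59 to 1.95), at 2.77% (2.55 to 3.01) against 1.57% (1.49 to 1.67). By RPM it was 1.98-fold lower (1.79 to 2.19), at 44.7 against 88.4. The direction of the cluster as a whole therefore turned with the scale. The same held for the reads with the shared 3p seed, hsa-miR-221-3p and hsa-miR-222-3p summed. They made 2.72% (2.50 to 2.95) of the miRNA counts in the UCA1-MS2 library and 1.46% (1.38 to 1.55) in the control library, 1.86-fold higher (1.67 to 2.06), while their RPM was 43.9 against 82.3, 1.87-fold lower (1.69 to 2.08).

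**Figure D2:**
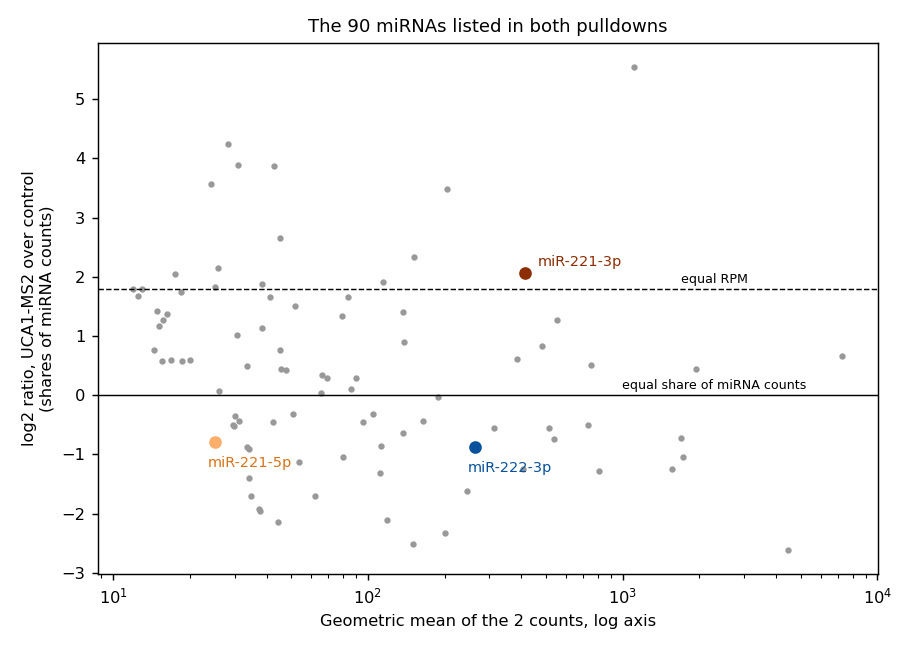
log2 ratio of the shares of miRNA counts, UCA1-MS2 over control, against the geometric mean of the 2 counts (log axis) for the 90 miRNAs listed in both pulldowns, with 3 members coloured. The solid line marks an equal share and the dashed line equal RPM. hsa-miR-221-3p lay above both lines, and hsa-miR-222-3p and hsa-miR-221-5p lay below both.

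The ratio of the paralogs within a library needs no scaling. hsa-miR-221-3p had 4.34 counts for each count of hsa-miR-222-3p in the UCA1-MS2 library (exact conditional interval 3.50 to 5.44). In the control library it had 0.566 (0.498 to 0.642), that is, 1.77 counts of hsa-miR-222-3p for each of hsa-miR-221-3p. The ratio differed 7.68-fold between the libraries (5.95 to 9.95), with a two-sided Fisher's exact p of 1.8e-69 on the reads, or 3.7e-69 adjusted over the 2 ratios tested. With both arms summed, the 2 paralogs stood at 4.44 and 0.643, a 6.91-fold difference. Neither interval held equality of the paralogs, and the intervals lay on either side of it.

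As a make-up of the cluster, miR-221 gave 453 of 555 counts in the UCA1-MS2 library, 81.6% (78.2 to 84.6), and 447 of 1142 in the control library, 39.1% (36.4 to 42.0). Which paralog carried the difference in make-up depended on the total, since against the miRNA totals hsa-miR-221-3p differed more and against the RPM totals hsa-miR-222-3p did. The 3p strands gave 98.2% (96.7 to 99.0) and 93.1% (91.5 to 94.4) of the cluster, with intervals that did not overlap.

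**Figure D3:**
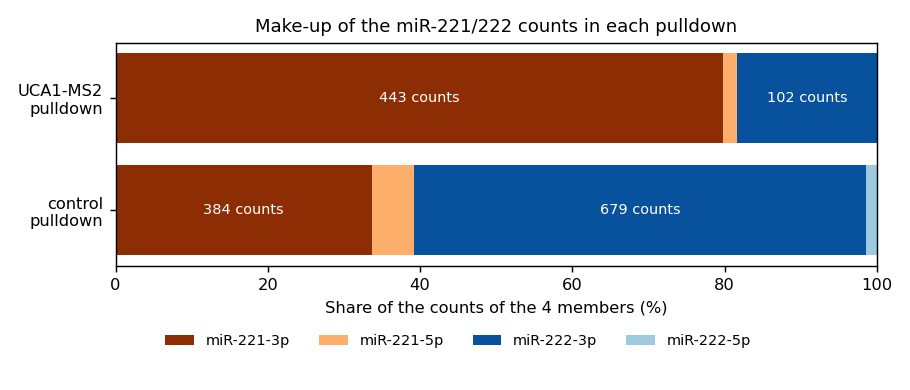
Share of the counts of the 4 members in percent, from 0 to 100, held by each member in each pulldown (1 library each), with the counts of the 3p strands written in the bars. hsa-miR-221-3p held 79.8% of the UCA1-MS2 bar and 33.6% of the control bar, and hsa-miR-222-3p held 18.4% and 59.5%.

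Between the arms, the 3p strand of miR-221 outnumbered its 5p strand in both libraries. There were 44.3 counts of hsa-miR-221-3p for each of hsa-miR-221-5p in the UCA1-MS2 library (23.9 to 93.0) and 6.10 in the control library (4.66 to 8.09). The ratios differed 7.27-fold (3.63 to 16.1, two-sided Fisher's exact p of 1.3e-11 on the reads, adjusted over the same 2 tests 1.3e-11). The first ratio rests on the 10 counts of hsa-miR-221-5p, which sit at the lowest listed count. Put as a share, the 5p strand gave 2.21% (1.20 to 4.02) of the miR-221 counts in the UCA1-MS2 library and 14.1% (11.2 to 17.6) in the control library.

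For miR-222, the 3p strand had 42.4 counts for each count of the 5p strand in the control library (25.9 to 74.7). In the UCA1-MS2 library only a limit could be given, at least 11.3 when set against the 9 counts that the listed 0 allows, a limit that leaves out the counting error of the 102. The control ratio is above that limit, so no difference between the libraries in the arms of miR-222 could be detected at this depth. Within the control library, the 5p strand was 14.1% of miR-221 and 2.30% (1.42 to 3.71) of miR-222, and the intervals did not overlap. Between the 5p strands, hsa-miR-221-5p had 3.94 counts for each of hsa-miR-222-5p there (2.25 to 7.30) and at least 1.11 in the UCA1-MS2 library.

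Ranked by counts, hsa-miR-221-3p was 11th of 102 in the UCA1-MS2 library and 22nd of 139 in the control library, and hsa-miR-222-3p was 25th and 18th. hsa-miR-221-5p was 96th and 63rd, and hsa-miR-222-5p was 115th in the control library. In the UCA1-MS2 library, hsa-miR-221-3p did not differ beyond counting error from the miRNAs just above it, miR-30a-5p with 470 counts and miR-3529-3p with 450. It lay above miR-4443 with 359 counts and miR-10a-5p with 337, whose intervals it did not overlap. In the control library it lay below let-7g-5p with 595 counts and miR-30a-3p with 473, and its interval overlapped those of miR-30c-5p with 365 and miR-26a-5p with 364.

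The neighbours of hsa-miR-222-3p were closer. In the UCA1-MS2 library they were miR-182-5p with 118 counts, miR-27a-3p with 117, miR-10b-5p with 101 and miR-27b-3p with 100. In the control library they were miR-10a-5p with 688, miR-4497 with 687, miR-3529-3p with 676 and let-7g-5p with 595. All of these had intervals that overlapped that of hsa-miR-222-3p.

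**Figure D4:**
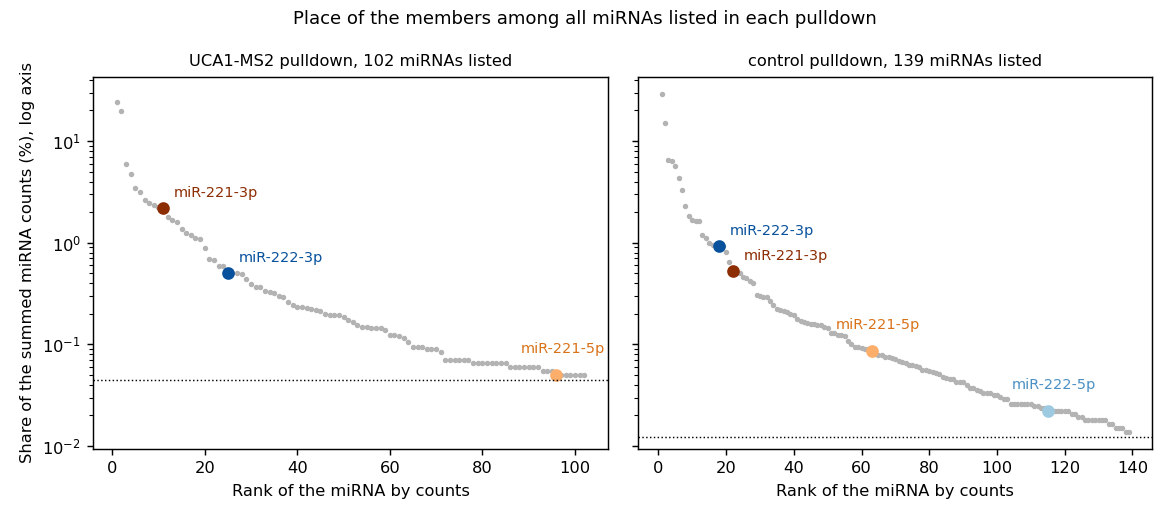
Share of the summed miRNA counts in percent (log axis) against rank by counts for the miRNAs listed in the UCA1-MS2 pulldown (left, 102 miRNAs) and the control pulldown (right, 139 miRNAs), 1 library each. The dotted line is the share of 9 counts, the limit for a listed 0. hsa-miR-221-3p stood 11th on the left and 22nd on the right, and hsa-miR-222-3p 25th and 18th.

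By log2 ratio between the libraries, 9 of the 90 miRNAs listed in both stood above hsa-miR-221-3p and 80 below it. For hsa-miR-221-5p 67 stood above and 22 below, and for hsa-miR-222-3p 70 above and 19 below. The nearest log2 ratios were sought among 73 miRNAs other than the members, listed in both libraries and with at least 50 counts over both. Those nearest to hsa-miR-221-3p were miR-99a-5p (2.15, from 29 and 23 counts), miR-27a-3p (1.91, from 117 and 112) and miR-3074-5p (1.87, from 39 and 38). Nearest to hsa-miR-222-3p were miR-106b-3p (-0.87, from 13 and 87), miR-320a (-0.86, from 44 and 289) and miR-532-5p (-0.91, from 13 and 89). Nearest to hsa-miR-221-5p were miR-30d-5p (-0.75), miR-3135b (-0.72) and miR-320a. Likeness here is the difference of 1 log2 ratio over 2 libraries and holds no more than that.

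How far the members of other related pairs differed was computed after the values of the paralogs were seen, and is a description. Of the 90 miRNAs listed in both libraries, 81 had a RefSeq mature sequence. They formed 48 pairs with a shared seed, whose log2 ratios differed by 0.02 to 4.81 with a median of 0.98. The pair of hsa-miR-221-3p and hsa-miR-222-3p, at 2.94, was 6th of the 48. The order of the 2 miRNAs swapped between the libraries in 9 of the 48 pairs, this one among them. Of 29 pairs whose genes lie within 10 kb on the same strand, the paralogs were 3rd, in a range from 0.07 to 4.51 with a median of 1.26. The arms of miR-221, at 2.86, differed most among 6 hairpins with both arms listed in both libraries, where the range began at 1.44 and the median was 1.99. Hairpins with an arm listed at 0 in a library, such as those of miR-27b and miR-222, were left out and may differ more. miR-221 entered with its 5p strand at the lowest listed count in the UCA1-MS2 library. Pairs with a shared miRNA are not independent, and differences as large as that of the paralogs were found in other families.

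**Figure D5:**
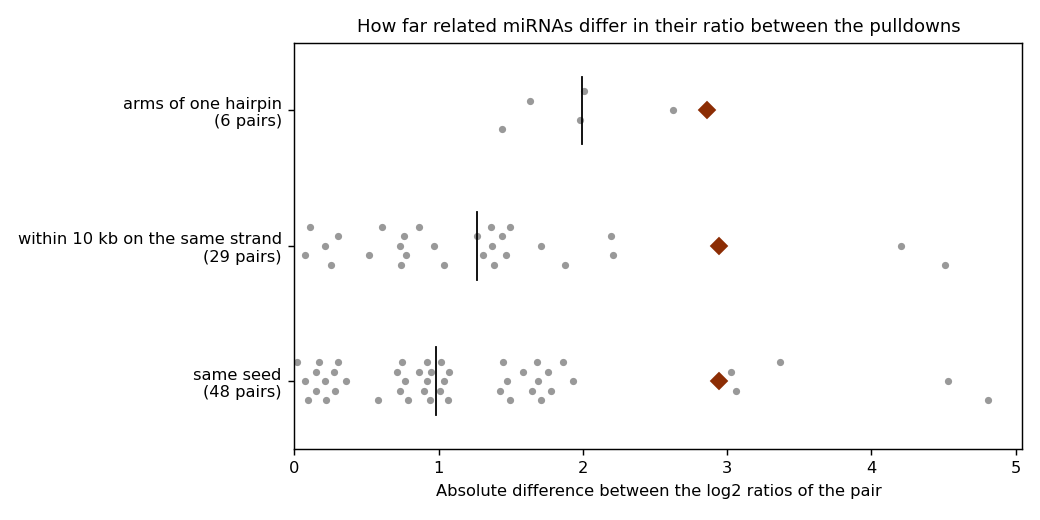
Absolute difference between the log2 ratios (UCA1-MS2 over control) of the miRNAs of a pair, for 48 pairs with the same seed, 29 pairs within 10 kb on the same strand and 6 pairs of arms of one hairpin, with the median as a black bar. Diamonds are hsa-miR-221-3p with hsa-miR-222-3p (lower 2 rows, at 2.94) and the arms of miR-221 (top row, at 2.86). The paralogs were 6th of 48 and 3rd of 29, and the arms of miR-221 had the largest of the 6 differences.

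The letters complementary to the 3p seed, ATGTAGC for bases 2 to 8 and TGTAGC for bases 2 to 7, were searched on the sense strand of UCA1. Neither was in any of the 36 UCA1 transcripts of GENCODE release 29, which were 532 to 2687 bases long. Among 9277 long intergenic non-coding transcripts within those lengths, 4.13% held ATGTAGC and 14.7% held TGTAGC. The longer word contains the shorter. For hsa-miR-222-5p the letters CTACTGA and TACTGA were also in 0 of 36, against 7.80% and 20.9% of the same transcripts. The 36 are isoforms of the same gene and not independent, so 0 of 36 cannot be read as a depletion, which was not tested. The cloned UCA1 and its MS2 hairpins were not used here, and a missing word says only that these letters are not in these transcripts.

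miRNAs that mark basal-like or mesenchymal and luminal or epithelial breast cells were also read, as a description. Of 10 basal-like or mesenchymal names other than the members, 9 were listed in either library and 7 in both, and 3 were at least 2-fold higher and 3 at least 2-fold lower against the miRNA totals, 1 of each through a listed 0. Over all 151 miRNAs tested the shares were 27.8% higher and 44.4% lower. Of the 67 lower, 49 had a listed 0 in the UCA1-MS2 library, while 12 of the 151 had a listed 0 in the control library. Against the RPM totals 1 of the 9 was at least 2-fold higher and 5 were at least 2-fold lower, where 11.9% and 70.2% of the 151 were. Their median log2 ratio over the 7 was 0.66, against 0.38 over all 90. miR-146a-5p, known from inflammatory signalling, had 179 and 128 counts (log2 ratio 2.33), miR-100-5p had 949 and 21067 (-2.62), and miR-125b-5p had 10 and 140 (-1.93). miR-21-5p, a widely abundant oncogenic miRNA, had 4805 and 10990 (0.66). The summed share of the list was 31.8% in the UCA1-MS2 library and 45.7% in the control library, and 3.05% and 1.50% without its most counted pair, miR-100-5p and miR-21-5p, which carried it. Of 10 luminal or epithelial names, 8 were at 0 in both libraries, among them miR-200c-3p, miR-141-3p and miR-375. miR-200b-3p, of the family that holds down ZEB1 and ZEB2, had 88 and 21 counts, and miR-200a-3p had 25 and 0, so that the summed share was 0.564% and 0.0289%. The basal-like sum was the larger in both libraries with or without that pair, and both listed epithelial markers had more counts in the UCA1-MS2 library, as hsa-miR-221-3p had.

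Markers of other tissues were listed too. Of 4 liver miRNAs, miR-122-5p had 488 and 0 counts, miR-192-5p 60 and 34, miR-194-5p 14 and 0, and miR-148a-3p 139 and 1197, a summed share of 3.50% and 1.70%. Of 3 erythroid miRNAs, miR-451a and miR-144-3p were at 0 in both libraries and miR-486-5p had 21 and 54 counts. The part of RNA from other cells or libraries in the values of the members was not tested.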

How the data were processed

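Small RNA from MS2 pulldowns was sequenced in 2 libraries, 1 per condition, grouped by the cell line in the labels. The authors deposited counts of reads per mature miRNA name, in which no value from 1 to 9 is listed. The deposited RPM values are the authors' counts scaled to a total, the same for each miRNA of a library, that is far above the summed miRNA counts and whose reads are not described. Per the labels, bcl2fastq and BWA were used, without version; the genome build, miRNA release, strand use and count minimum are not given in the sources used here. A series table holding the authors' own log2 fold changes and p-values was not used.

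The log2 ratio per miRNA was computed from shares of the summed miRNA counts, adding 0.5 counts scaled by the size of each library, over 151 miRNAs with at least 10 counts over both libraries. Called means a change of at least 2-fold. With 1 library per condition, the quasi-likelihood test of edgeR had no spread to estimate and was not run. Two-sided Fisher's exact tests (scipy 1.17.1, Benjamini-Hochberg) compare the reads of these libraries only. Shares have 95% Wilson intervals and ratios of 2 counts exact conditional ones. PCR reads carry no molecular identifier and may be copies of 1 molecule, so intervals and limits cover counting error only. The script was tested on simulated counts that held counting error only, so spread between pulldowns was not part of that test. Named were the members, 2 neighbours by rank on each side of each 3p strand, the 3 miRNAs nearest in log2 ratio and members of the marker lists (basal-like or mesenchymal, luminal or epithelial, erythroid and liver). The members, lists and tests were chosen with earlier results of these data known. Alternatives were RPM totals, TMM (edgeR 4.0.16), size factors (DESeq2 1.42.0), other totals, pseudocounts and count minimums, 9 counts for a listed 0, both arms summed and edgeR's exact test with an assumed variation. Other tools were R 4.3.3, Python 3.11.15, numpy 2.4.6, pandas 2.3.3 and matplotlib 3.10.9. Sequences came from RefSeq (GRCh38.p14) and positions in genes from GENCODE release 29.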

Additional observations from a re-analysis of the deposited data

Results flagged for a closer look

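The ratio of hsa-miR-221-3p to hsa-miR-222-3p differed 7.68-fold between the libraries and that of hsa-miR-221-3p to hsa-miR-221-5p 7.27-fold. Each drew attention because the members changed by different amounts under the same contrast in a test of that difference on the reads (two-sided Fisher's exact p of 1.8e-69 and 1.3e-11). Both tests leave out the spread between pulldowns, which 1 library per condition cannot give.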

How the results depend on the processing

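Without replicates, a left-out library leaves no comparison, and differences between the libraries and between the cell lines cannot be told apart. No paired analysis was possible because there was only 1 library on each side. hsa-miR-221-3p was higher in the UCA1-MS2 library under all 15 alternatives, but only those that changed the totals could have turned its direction. Its log2 ratio was 0.26 on RPM totals, 1.68 with DESeq2's size factors and 1.885 with TMM. It was 1.71 when the totals left out each library's top miRNA and 2.08 when they left out the members. The alternatives that kept the miRNA totals gave 2.06 and could not test the direction. Over all 15, adjusted p-values ran from 1.9e-90 to 0.0606. The 0.0606 came from edgeR's exact test on the miRNA totals with an assumed coefficient of variation of 0.4. No test with an assumed variation was run on the RPM totals, so 0.0606 is not a limit for them. hsa-miR-221-3p lost the 2-fold call against the RPM totals (0.26), also with 9 counts for each listed 0 (0.26), an alternative chosen after seeing the data. hsa-miR-221-5p (main log2 ratio -0.79) passed 2-fold lower against RPM totals (-2.54, also with 9 counts for a 0) and DESeq2's size factors (-1.16). It also did so (-1.13) with miR-21-5p and miR-100-5p, the most counted miRNA of each library, both left out of both totals. hsa-miR-222-3p passed 2-fold lower under the same settings (-2.67, -2.67, -1.26 and -1.23) and under TMM (-1.05). Its adjusted p-values ran from 1.3e-99 to 0.418, and those of hsa-miR-221-5p from 8.6e-10 to 1. hsa-miR-222-5p (-4.42) turned to 0.99 with 9 counts for its 0 and came to -0.74 with RPM totals besides. The summed members turned from 0.82 to -0.98 with RPM totals and to -0.96 with 9 counts besides.

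miRNAs at least 2-fold higher numbered 42, against 18 with RPM totals, 24 with at least 50 counts and 11 with RPM totals and 9 counts for a 0. Those lower numbered 67, against 106 with RPM totals, 18 with no count added or only miRNAs listed in both, 19 with 9 counts for a 0 and 25 with at least 50 counts. The share of higher among all calls was 38.5%, and 14.5% with RPM totals, 74.0% with 9 counts for a 0, 62.5% over miRNAs listed in both and 49.0% with at least 50 counts. TMM lowered the median log2 ratio of the miRNAs listed in both from 0.38 to 0.20, and totals without the most counted miRNA to 0.03. With both arms summed, the control ratio of miR-221 to miR-222 was 0.643. The limit for the arms of miR-222 in the UCA1-MS2 library was 102 with 1 count for the 0.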
